A study of Mus musculus with 8 samples.

Results

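Retinoic acid is the active form of vitamin A, and 9 genes that make, bind, sense or destroy it were followed in granulosa cells of newborn mice: Aldh1a1, Aldh1a2, Crabp1, Crabp2, Rara, Rarb, Rarg, Rxra and Cyp26b1. They were taken by gene symbol from a filtered expression table of 11783 genes, in which 6 of the 9 had a row. Crabp1 (chromosome 9, 54764748 to 54773110), Crabp2 (chromosome 3, 87948666 to 87953376) and Rarb (chromosome 14, 16430839 to 16819156) had none, and their levels were not analysed here. No level can be read from that, since the filter behind the table is not known beyond the smallest row listed, which sums to 2.83 FPKM over the 8 libraries. The cells, somatic cells that surround the oocyte, were dissociated from ovaries of C57BL/6 mice, and 4 libraries were made for postnatal day 1 (PND1) and 4 for postnatal day 4 (PND4). The labels name no genetic change and no treatment for either age. The series compares the ages in connection with primordial follicle activation. No label ties a library to its own animal or litter, so each p-value below rests on a spread between libraries that could be technical.

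Cells make retinoic acid from retinol through retinal, and the last step is catalysed by retinaldehyde dehydrogenases such as ALDH1A1 and ALDH1A2. The CRABP proteins carry it in the cytoplasm, the retinoic acid receptors (RARA, RARB and RARG) bind DNA as partners of retinoid X receptors such as RXRA, and CYP26 enzymes oxidise it to inactive products. In the fetal ovary retinoic acid is known for promoting entry of germ cells into meiosis, and in the fetal testis CYP26B1 is known for keeping its level low.

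The level of each gene is given as FPKM, fragments scaled by transcript length and by library size. The lengths used are not known, and comparisons of level between genes depend on them. The listed genes summed to 443333 to 505035 FPKM per library, and 222 to 1234 of the genes were at 0 in a given library. Read depth is unknown. Of the granulosa markers 10 of 12 had a row, and Fshr and Hsd17b1 had none. Foxl2, which maintains ovarian somatic identity, was present in every library, at 10.5 to 26.2 FPKM. The table has 0 FPKM for Amh, another granulosa marker, in 4 libraries (PND1 replicates 1 to 3, PND4 replicate 1). Of the 6 endothelial markers none had a row. In PND1 replicate 2 and PND4 replicate 1 the summed markers of the ovarian surface epithelium were 98.5 and 183 FPKM, against 263 to 425 in the other 6 libraries. Of the 7 smooth muscle and pericyte markers 4 had no row (Myh11, Rgs5, Cspg4 and Pdgfrb). The 3 with a row summed to 724 and 710.5 FPKM in that pair of libraries, against 332 to 525 in the other 6. Acta2 made up at least 97.9% of this sum, which is thus close to the level of 1 gene. The oocyte markers summed to 195 FPKM in PND4 replicate 3 and to 12.2 to 61.6 FPKM elsewhere. In that library Zp2 and Zp3 were at 55.8 and 61.3 FPKM, while Dazl, Figla and Kit were higher in another library. Between the ages, the markers of stroma summed to 106 to 123 FPKM in PND1 and 138 to 172 FPKM in PND4 libraries. The log2 difference was above 0 for 9 of 9 stroma genes, against 60.3% of all tested genes. The markers of red blood cells summed to 17.1 to 48.9 and 0.268 to 11.4 FPKM in the same order. They were lower at PND4 without overlap for 3 of 3 genes with a row, while 4.24% of tested genes did not overlap in either direction. In the stroma, granulosa and oocyte lists the ages were apart for 1 of 9 tested genes each. None of the 12 stroma and red blood cell genes passed the test (limma, smallest adjusted p = 0.556), and the part of these cells in the levels below was not tested.

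The coding sequences of Aldh1a1 and its mouse relative Aldh1a7 are shown because reads of one can be assigned to the other. The first 120 coding bases of each, 5′ to 3′, were read from the GENCODE M21 transcripts, and capitals mark the 10 positions at which they differ.
Aldh1a1: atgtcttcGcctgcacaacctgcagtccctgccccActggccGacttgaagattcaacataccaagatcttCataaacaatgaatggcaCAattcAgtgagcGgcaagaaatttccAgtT
Aldh1a7: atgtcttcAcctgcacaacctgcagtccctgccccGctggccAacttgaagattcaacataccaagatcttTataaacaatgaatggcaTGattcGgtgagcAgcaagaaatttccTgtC
Over the 1503 aligned coding bases 91.6% were identical, and the longest stretch without a difference was 100 bases.

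Rarb is a textbook target of the receptors, and bases before one of its start sites are shown because this was the 1 window of 14, from 8 of the 9 genes, that held a direct repeat of the retinoic acid receptor half-site. On both strands the half-site was searched as AGGTCA and, allowing its usual variants, as AGTTCA, with GGTTCA and also with GGGTCA accepted, together with direct repeats of any 2 of these with a spacing of 1, 2 or 5 bases. Each window runs from 250 bases before to 50 after a RefSeq start site. The 100 bases before the start site of Rarb, at chr14:16575477-16575576 on the minus strand (GRCm38.p6), are given 5′ to 3′, with half-sites and the repeat with its spacer in capitals.
Rarb: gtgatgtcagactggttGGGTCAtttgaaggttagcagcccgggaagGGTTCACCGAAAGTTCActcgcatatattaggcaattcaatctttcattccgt
The repeat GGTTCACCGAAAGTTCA has a spacing of 5 bases and lies from -53 to -37 relative to that start site. Such repeats of spacing 5 were found in 0.0974% of all 32851 windows. Of the windows of the 9 genes, 6 of 14 held a half-site, against 43.7% of all windows. A match describes letters in this window and not a bound site.

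Aldh1a1 was by far the most abundant of the 6 genes, with a mean of 357 FPKM over the 8 libraries, above the mean level of 99.1% of listed genes. Aldh1a1 (ENSMUSG00000053279, chromosome 19 from 20492715 to 20643465, plus strand, GRCm38) encodes a cytosolic enzyme that oxidises retinal to retinoic acid. It stood at 314, 455, 329 and 346 FPKM in PND1 replicates 1 to 4, and at 393, 356, 330.4 and 330.3 FPKM in PND4 replicates 1 to 4. PND1 replicate 2 was highest and PND1 replicate 1 lowest, and the ages overlapped. The PND1 libraries averaged 361 ± 64.0 FPKM and the PND4 libraries 352 ± 29.6 FPKM (SD, n = 4). The difference of log2(FPKM + 1), PND4 minus PND1, was -0.023 with a standard error of 0.13 (limma, unadjusted p = 0.862, adjusted p = 0.983). Its 95% interval, -0.30 to 0.26, spans 0.811-fold to 1.20-fold, so larger differences in either direction lie outside it. The sign turned to 0.094 without PND1 replicate 2.

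Aldh1a7 was far lower, with 4.04 ± 1.65 FPKM in PND1 and 2.80 ± 1.65 FPKM in PND4 libraries (SD, n = 4). How reads that fit both copies were counted is not known, so the values of both are uncertain to that extent, above all those of Aldh1a7.

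Aldh1a2 was the next most abundant, with a mean of 31.8 FPKM, above that of 83.5% of listed genes. Aldh1a2 (ENSMUSG00000013584, chromosome 9 from 71215789 to 71296243, plus strand) encodes the main retinoic acid-making enzyme of the early embryo. It stood at 20.4, 25.0, 26.9 and 40.3 FPKM in PND1 replicates 1 to 4, and at 28.2, 36.7, 52.9 and 24.2 FPKM in PND4 replicates 1 to 4. The highest value was in PND4 replicate 3. That library also had the highest summed markers of oocytes (195 FPKM), surface epithelium (425 FPKM) and stroma (172 FPKM). The part of RNA from any of these cells in the value was not tested. The ages overlapped, with means of 28.1 ± 8.53 and 35.5 ± 12.7 FPKM (SD, n = 4). The log2 difference was 0.31 (95% interval -0.26 to 0.88, limma unadjusted p = 0.263, adjusted p = 0.852), and 0.099 without PND4 replicate 3.

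Within a library Aldh1a1 exceeded Aldh1a2 by 6.24-fold to 18.2-fold, in 8 of 8 libraries. Aldh1a2 thus made up 5.21% to 13.8% of the summed FPKM of this pair. Its share was 7.32% ± 2.28 at PND1 and 9.17% ± 3.32 at PND4 (SD, n = 4), with overlapping ages.

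**Figure D1:**
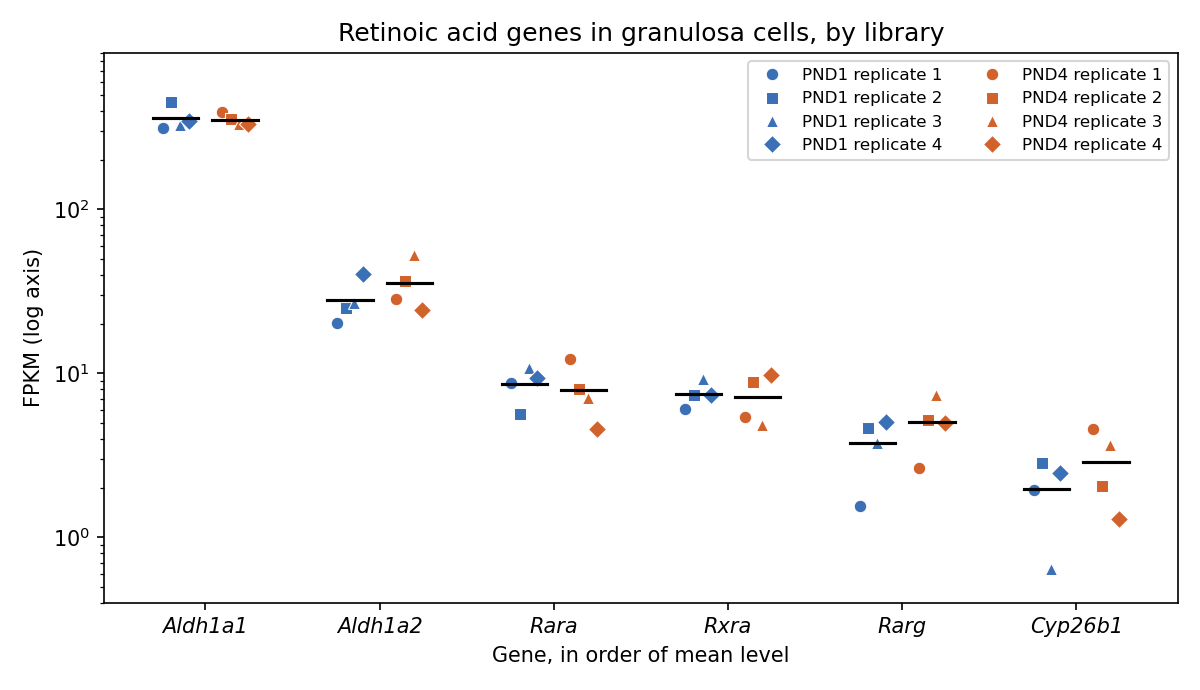
FPKM of the 6 genes with a row, on a log axis, in order of mean level. Each point is a library (blue PND1, orange PND4, symbol by replicate) and the black line is the mean of an age. Aldh1a1 lies between 314 and 455 FPKM, apart from all others, and the points of the ages overlap for every one of the 6 genes.

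The receptors were expressed at a few FPKM each, and none of the 3 with a row passed the test. Rara (ENSMUSG00000037992, chromosome 11 from 98927818 to 98974942, plus strand) encodes the most widely expressed of the retinoic acid receptors. It stood at 8.68, 5.63, 10.8 and 9.42 FPKM in PND1 replicates 1 to 4 and at 12.3, 7.99, 7.04 and 4.59 FPKM in PND4 replicates 1 to 4. The highest and the lowest value were both from PND4, and the means were 8.64 ± 2.20 and 7.97 ± 3.20 FPKM (SD, n = 4). The log2 difference was -0.14 (95% interval -0.81 to 0.53, limma adjusted p = 0.944), and -0.52 (interval -1.14 to 0.098, adjusted p = 0.792) without PND1 replicate 2 and PND4 replicate 1, the pair of libraries with low surface epithelium markers. Its sign turned to 0.064 without PND4 replicate 4.

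Rarg (ENSMUSG00000001288, chromosome 15 from 102234938 to 102257517, minus strand) encodes the receptor best known from skin and skeleton. It stood at 1.55, 4.66, 3.75 and 5.03 FPKM in PND1 replicates 1 to 4 and at 2.66, 5.22, 7.42 and 4.97 FPKM in PND4 replicates 1 to 4. Within each age replicate 1 was the lowest, and PND4 replicate 3 was the highest of all 8. Means were 3.75 ± 1.56 FPKM for PND1 and 5.07 ± 1.94 FPKM for PND4 (SD, n = 4), with overlapping libraries. The log2 difference was 0.37 (95% interval -0.47 to 1.20, limma adjusted p = 0.874). It was 0.093 without PND1 replicate 1, 0.19 without PND4 replicate 3, 0.59 without PND4 replicate 1, and 0.70 without PND1 replicate 2 and PND4 replicate 1 together (adjusted p = 0.802).

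Rxra (ENSMUSG00000015846, chromosome 2 from 27676440 to 27762957, plus strand) encodes the retinoid X receptor that pairs with the retinoic acid receptors and with several other nuclear receptors. It stood at 6.08, 7.39, 9.30 and 7.34 FPKM in PND1 replicates 1 to 4 and at 5.39, 8.81, 4.83 and 9.84 FPKM in PND4 replicates 1 to 4. The PND4 values reached both below and above all PND1 values, around means of 7.22 ± 2.48 and 7.53 ± 1.33 FPKM respectively (SD, n = 4). On the log2 scale Rxra differed by -0.091 (95% interval -0.70 to 0.52, limma adjusted p = 0.965), and 0.057 without PND4 replicate 3.

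Rara made up 69.8% ± 12.9 of the summed FPKM of Rara and Rarg at PND1 and 59.8% ± 16.0 at PND4 (SD, n = 4). The share ran from 48.0% in PND4 replicate 4 to 84.9% in PND1 replicate 1, and Rara was the larger of the pair in 6 of 8 libraries. The summed FPKM of the pair ran from 9.56 to 14.9 over the 8 libraries.

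Cyp26b1, for an enzyme that degrades retinoic acid, was the lowest of the 6 genes, with a mean of 2.43 FPKM. Cyp26b1 (ENSMUSG00000063415, chromosome 6 from 84571414 to 84593908, minus strand) stood at 1.95, 2.83, 0.641 and 2.47 FPKM in PND1 replicates 1 to 4 and at 4.58, 2.05, 3.65 and 1.29 FPKM in PND4 replicates 1 to 4. The values spread 7.15-fold from lowest to highest, the widest spread of the 6 genes, and the ages overlapped, with means of 1.97 ± 0.959 FPKM for PND1 and 2.89 ± 1.49 FPKM for PND4 (SD, n = 4). The log2 difference was 0.37 (95% interval -0.58 to 1.33, limma adjusted p = 0.891), and it was 0.11 without PND1 replicate 3 and 0.17 without PND4 replicate 1. The summed FPKM of Aldh1a1 and Aldh1a2 was 91.9 to 556 times that of Cyp26b1, with a median of 170.2 at PND1 and 148 at PND4. The highest of these ratios, in PND1 replicate 3, goes with the lowest value of Cyp26b1.

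Of the 6 genes, all passed the filter on low values (at least 1 FPKM in at least 4 libraries) and 0 passed the test between ages (limma on log2(FPKM + 1), adjusted p under 0.05), 3 having a higher and 3 a lower mean log2 level at PND4. Over all 10756 genes tested 0.0093% were called, which is the 1 predicted gene Gm16272, lower at PND4 by -4.30 on the log2 scale, so 0 of 6 is near the background. An unadjusted p under 0.05 was had by 0 of the 6, against 5.9% of tested genes, and the libraries of the ages were apart for 0 of the 6, against 4.24%. By the authors' deposited table, none of the 6 had a q-value under 0.05, against 0% of its 11783 genes, and none had a p-value under 0.05, against 6.55%. The authors' deposited table gives Cyp26b1 the smallest p-value of the 6, 0.243, with a fold of 0.702, read from the values as PND1 over PND4. The median log2 difference of the 6 was 0.14, and that of all tested genes 0.078. The median of all tested genes depended on the scaling, being 0.0081 with median-of-ratios and 0.0027 with upper-quartile scaling. The intervals of Rara, Rarg and Cyp26b1 reached 0.67, 0.83 and 0.95 to either side, against a median of 0.65 for all tested genes and 0.28 for Aldh1a1. For Rarg and Cyp26b1 they include a 2.30-fold and a 2.51-fold higher FPKM + 1 at PND4, which is a larger fold of FPKM itself. With a pseudocount of 0.1 the upper limits were 1.53 and 2.00 on the log2 scale.

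Ordered by mean level, Aldh1a1 stood above Aldh1a2, and Aldh1a2 above Rara, with ranges over the 8 libraries that did not overlap. Aldh1a2 exceeded Rara by 2.30-fold to 7.52-fold. Below these the neighbours overlapped. Rara was above Rxra in 5 of 8 libraries, Rxra above Rarg in 7 of 8 and Rarg above Cyp26b1 in 6 of 8, so the order among these 4 is not fixed beyond their spread.

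The 6 genes were then compared with each other across the 8 libraries on the log2(FPKM + 1) scale, in 15 pairs, of which 0 passed after adjustment. Rxra and Cyp26b1 ran in opposite directions (Pearson r = -0.81, exact permutation p = 0.0132, adjusted p = 0.199, Spearman rho = -0.79, exact permutation p = 0.0279, adjusted p = 0.288, n = 8). The r was -0.62 without the 2 libraries farthest from the median of Rxra, -0.80 without PND1 replicate 2 and PND4 replicate 1, and -0.82 with each age centred on its mean. Aldh1a2 and Rarg ran in the same direction (r = 0.76, exact permutation p = 0.0270, adjusted p = 0.202, rho = 0.74, exact permutation p = 0.0458, adjusted p = 0.288, n = 8). That r was 0.60 without the 2 libraries farthest from the median of Aldh1a2, 0.83 without PND1 replicate 2 and PND4 replicate 1, and 0.72 with each age centred. All genes of a library share its depth and its mixture of cells.

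**Figure D2:**
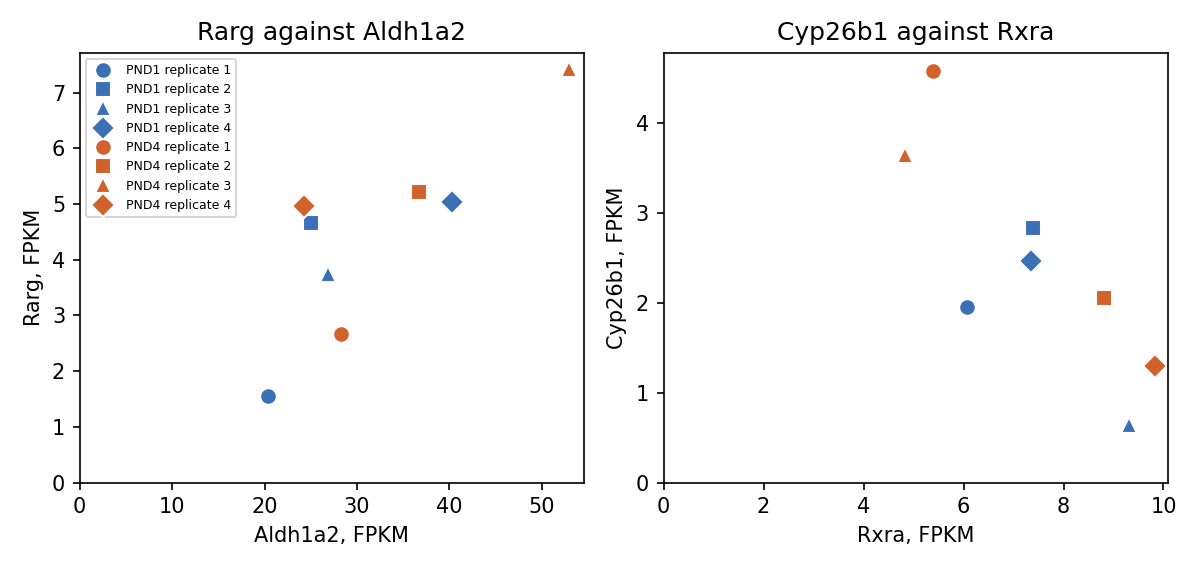
FPKM of Rarg against Aldh1a2 (left) and of Cyp26b1 against Rxra (right), 1 point per library (blue PND1, orange PND4, symbol by replicate). PND4 replicate 3 has the highest Aldh1a2 (52.9 FPKM) and Rarg (7.42 FPKM), and PND4 replicate 1 the highest Cyp26b1 (4.58 FPKM). Neither pair passed adjustment over the 15 pairs.

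Aldh1a1 was highest within each age in PND1 replicate 2 (455 FPKM) and PND4 replicate 1 (393 FPKM), the pair of libraries with low surface epithelium markers and high Acta2. Their summed granulosa markers were 649 and 668 FPKM against 760.2 to 812 in the other 6 libraries. The keratin gene Krt18, also expressed in surface epithelium, made up 56.7% to 69.6% of that sum. Without Krt18 the granulosa sum was 271 and 290 FPKM in this pair, above the 231 to 262 of the other 6, so the direction depended on this 1 gene. In those 6 libraries Aldh1a1 stayed between 314 and 356 FPKM, with means of 330 ± 16.0 at PND1 and 339 ± 14.8 at PND4 (SD, n = 3). Because this pair stands apart, relations of the 6 genes with 6 summed marker levels were computed within the other 6 libraries, and 0 of 36 passed (smallest adjusted p = 0.36, exact permutation), with 4 at an unadjusted p under 0.05. The pairings of 6 libraries are too few for a single relation among 36 to pass, so nothing is concluded from that count. The part of the cell mixture in the levels of Aldh1a1 was not tested. In RNA from many cells, fewer cells of a type and less RNA per cell cannot be told apart.

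**Figure D3:**
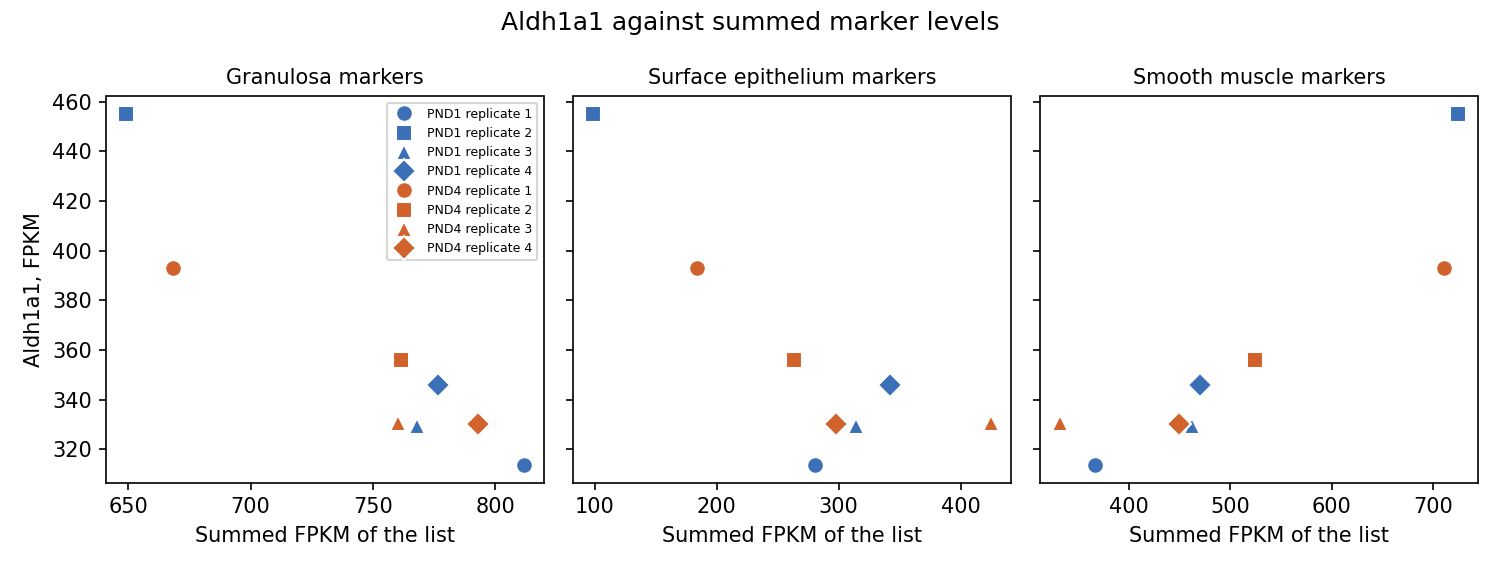
FPKM of Aldh1a1 against the summed FPKM of granulosa, surface epithelium and smooth muscle markers, 1 point per library (blue PND1, orange PND4, symbol by replicate). PND1 replicate 2 and PND4 replicate 1 stand apart from the other 6 libraries in all 3 panels. Acta2 made up at least 97.9% of the smooth muscle sum, and the axes do not start at 0.

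For the 3 most abundant of the genes, the genes with the most similar pattern over the 8 libraries were taken from 6861 candidates by Pearson r of log2(FPKM + 1), with no test. For Aldh1a1 these were Cnn2, for an actin-binding calponin (r = 0.97), and Anapc10, for a subunit of the anaphase-promoting complex (r = 0.95). Cnn2 averaged 225 ± 56.7 FPKM in PND1 and 226 ± 42.1 FPKM in PND4 libraries (SD, n = 4), with its highest values, 309 and 286 FPKM, in the same libraries as Aldh1a1, PND1 replicate 2 and PND4 replicate 1. Without these libraries r was 0.89 for Cnn2 and 0.48 for Anapc10, so the likeness of Anapc10 rests on them. For Aldh1a2 they were the helicase gene Ddx24 (r = 0.97) and Tmtc3 (r = 0.94), and without PND4 replicate 3 the values were 0.93 and 0.91. For Rara they were the chromatin remodeller gene Chd9 (r = 0.95) and S100a11, for a calcium-binding protein (r = 0.92). With 8 libraries and this many candidates, values of this size are reached by several genes for each, and r was above 0.9 for 6 candidates with Aldh1a1, 9 with Aldh1a2 and 5 with Rara.

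The wider pathway was described through 4 lists of 62 genes, of which 36 had a row and 34 were tested. None passed (limma, adjusted p under 0.05), 1 had an unadjusted p under 0.05, and the libraries of the ages were apart for 0. Of the 34, the log2 difference was above 0 for 21 and below 0 for 13, against 60.3% above 0 among all tested genes, and the median was 0.091, against 0.078 for all.

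In the list for retinol transport, storage and conversion to or from retinal, 11 of 19 genes had a row and 0 of 11 passed. Akr1b3, an aldose reductase that can reduce retinal, averaged 61.7 ± 16.2 FPKM in PND1 and 67.7 ± 4.75 FPKM in PND4 libraries. In the same order, the alcohol dehydrogenase gene Adh5 averaged 49.6 ± 4.78 and 56.4 ± 3.82 FPKM, and Rdh11, for a retinal reductase, averaged 9.85 ± 3.71 and 13.3 ± 4.98 FPKM (SD, n = 4). The genes with no row in this list were Rbp4, Lrat, Dhrs9, Adh1, Adh7, Bco1, Bco2 and Ttr.

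Among 6 further genes for synthesis, binding and clearance, Aldh1a7 and Fabp5 had a row. Fabp5 encodes a fatty acid-binding protein that can also carry retinoic acid, and it was the gene with an unadjusted p under 0.05. It stood at 26.8, 38.5, 22.8 and 23.4 FPKM in PND1 replicates 1 to 4 and at 47.4, 35.0, 34.9 and 43.0 FPKM in PND4 replicates 1 to 4. All PND4 values were above those of 3 PND1 libraries, and PND1 replicate 2 lay within the PND4 range. Its log2 difference was 0.53 (95% interval 0.11 to 0.95, limma unadjusted p = 0.0174, adjusted p = 0.770), and did not pass. Without PND1 replicate 2 it was 0.69 (adjusted p = 0.869), and without PND1 replicate 2 and PND4 replicate 1 it was 0.61 (adjusted p = 0.792). With median-of-ratios scaling it was 0.45 (interval -0.027 to 0.93), and without PND1 replicate 3 it was 0.45 (interval -0.0067 to 0.90). An interval clear of 0 thus depended on the scaling and on single libraries. The other clearance genes of the CYP26 family, Cyp26a1 and Cyp26c1, and the synthesis gene Aldh1a3 had no row.

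Of 20 partners and coregulators of the receptors 13 had a row, 12 were tested and 0 passed, with a median log2 difference of 0.15. Hdac3, for a corepressor enzyme, averaged 42.4 ± 1.40 FPKM in PND1 and 45.3 ± 1.94 FPKM in PND4 libraries. Nr1h2, for a nuclear receptor that also pairs with retinoid X receptors, averaged 17.9 ± 2.90 and 21.0 ± 7.86 FPKM. The thyroid hormone receptor gene Thra averaged 15.9 ± 2.09 and 15.4 ± 5.66 FPKM (SD, n = 4).

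Of 22 genes known to respond to retinoic acid 14 had a row, 13 were tested and 0 passed, with a median log2 difference of -0.045. Among the most abundant, with PND1 before PND4, were the transcription factor genes Gata4, at 71.0 ± 31.0 and 64.4 ± 20.7 FPKM, and Tgif1, at 27.8 ± 4.36 and 30.3 ± 5.56 FPKM (SD, n = 4). Stra8, the retinoic acid target that starts meiosis, had no row. Rec8, a meiotic cohesin gene induced with it, was listed at 0 in PND4 replicates 1 and 2 and had at most 3.19 FPKM in any library, and it was not tested.

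**Figure D4:**
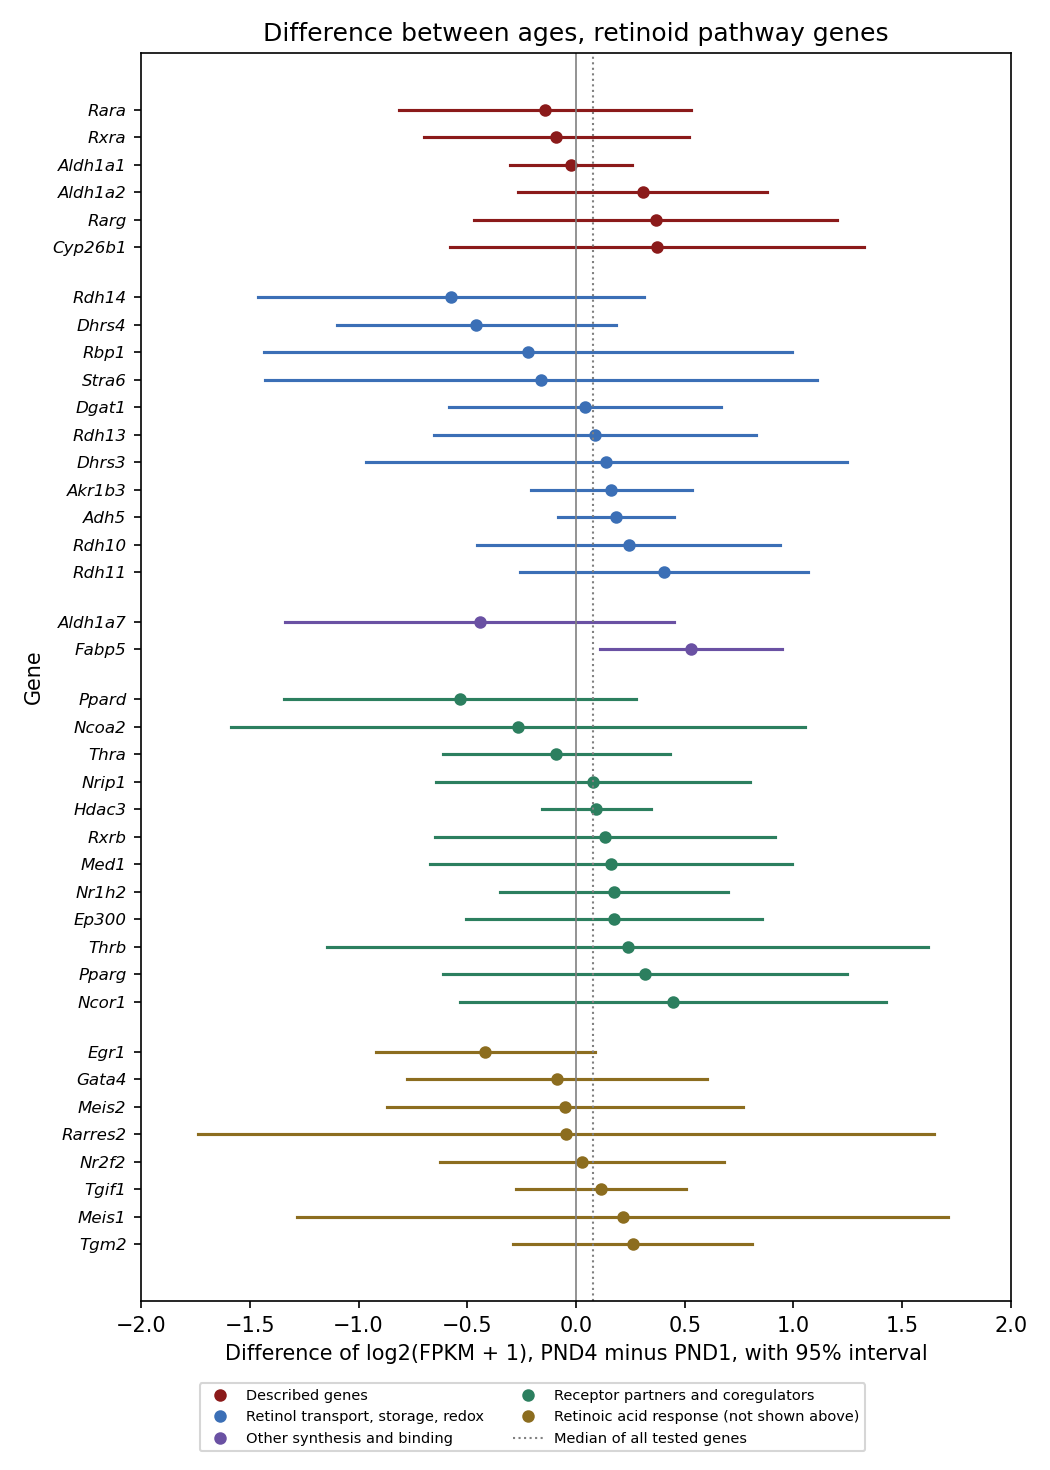
Difference of log2(FPKM + 1), PND4 minus PND1, with its 95% interval (limma), for the 6 genes and the tested genes of the 4 lists that are reported here. A gene in several lists is drawn once, and the dotted line is the median of all tested genes, 0.078. The interval of Fabp5 alone lies to the right of 0, and its adjusted p was 0.770.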

How the data were processed

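RNA from granulosa cells of 4 PND1 and 4 PND4 libraries was sequenced. The submitters' processing notes name Trim Galore, HISAT2 and GRCm38. No source used here gives the program behind the FPKM, its annotation, its gene filter or its use of strand. The authors deposited FPKM for 11783 genes, per the file headers, and beside them a row sum (a signal), also deposited, which entered no result. Their other deposited file holds a ratio (fold) per gene with its log2, p-value and q-value, from a test that no source names.

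Values were taken as log2(FPKM + 1), which understates changes of low values. Tests covered the 10756 genes that reached 1 FPKM in 4 or more of the 8 libraries, with limma 3.58.1 in R 4.3.3 (mean-dependent prior variance, no block, Benjamini-Hochberg adjustment over all tested genes, threshold 0.05). The fit was run on simulated data with independent noise for each gene, without shifts shared between genes, and its recovery of changes is not reported here. Among 2467 genes of a single transcript at most 33.0% of low values lay within 0.1 of whole reads at the best depth tried, against 20% by chance, so reads were not recovered and depth is unknown. No library pair was identical. Gene positions came from GENCODE M21 (GRCm38). None of the 6 genes shared exonic bases with another annotated gene. Alignments used Biopython 1.88 and figures matplotlib 3.10.9.

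The genes and lists were chosen with earlier results of these data known. The rule for names took the 9 genes, the 3 most abundant genes of each list and any that passed, and the 2 genes most like each of the 3 most abundant of the 9 (mean of at least 5 FPKM, no predicted loci). Foxl2, Amh, Acta2, Krt18, Zp2, Zp3, Dazl, Figla, Kit, Rec8, Gm16272 and the genes named for having no row were chosen after seeing their values. The lists' counts include 1 gene whose own values are not reported here. Alternatives were scaling, pseudocount (0.1 and 5), filter, robust variance, a replicate block and leaving out each library. Leaving out both libraries numbered 1, leaving out PND1 replicate 2 with PND4 replicate 1, rescaling without mitochondrial genes, and the values of Fabp5 and of the likeness without single libraries were added after seeing the data.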

Additional observations from a re-analysis of the deposited data

Results flagged for a closer look

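Among 34 groups of 4 libraries (17 genes at each age) 1 value stood far from its group, where chance flags about 1 in 20. Rdh11 reached 20.7 FPKM in PND4 replicate 3, while the remaining PND4 libraries held 10.3 to 11.4 FPKM. This is also the library with the highest Aldh1a2 and Rarg. Its summed markers of oocytes, surface epithelium and stroma were each the highest too, and the part of those cells was not tested.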

How the results depend on the processing

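None of the 6 genes passed under any of 19 alternatives (smallest adjusted p = 0.751), and the counts of 1 gene over the table and 0 in the pathway lists held throughout. The sign turned in 9 of 112 refits of single genes. For Aldh1a1 the difference was 0.094 without PND1 replicate 2, 0.0069 without PND4 replicate 3, 0.0071 without PND4 replicate 4 and 0.040 without the 2 libraries that stand apart. For Rxra it was 0.0038 without PND1 replicate 3, 0.013 without PND4 replicate 1, 0.057 without PND4 replicate 3 and 0.0090 without the 2 that stand apart, and for Rara 0.064 without PND4 replicate 4. With 1 library left out the differences ran from -0.085 to 0.094 for Aldh1a1, 0.099 to 0.49 for Aldh1a2, -0.35 to 0.064 for Rara, 0.093 to 0.59 for Rarg, -0.24 to 0.057 for Rxra and 0.11 to 0.60 for Cyp26b1. The pseudocount moved the difference of Cyp26b1 from 0.17 (5) to 0.55 (0.1) and that of Rarg from 0.20 to 0.46. With median-of-ratios scaling the differences were -0.10 for Aldh1a1, 0.23 for Aldh1a2, -0.21 for Rara, 0.31 for Rarg, -0.16 for Rxra and 0.32 for Cyp26b1. A stricter filter left Rarg and Cyp26b1 untested. With the replicate number as a block the count over the table was 1 and the difference of Aldh1a2 0.31 (limma, adjusted p = 0.794). Same-numbered libraries did not deviate together (correlations -0.0088 to 0.12), and 2 of 8 libraries matched their own number best. With 4 libraries an age and unknown depth, small changes of genes at a few FPKM are beyond reach. Fabp5 ran from 0.44 to 0.69 over its alternatives and did not pass in any, and in several its interval included 0.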
